A study of Saccharomyces cerevisiae with 6 samples.

Results

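The *ATG* genes of *Saccharomyces cerevisiae*, which encode the proteins of autophagy, were followed in a xylose-fermenting yeast with and without *PHO13*. A gene was taken as a member when its symbol was ATG and a number, looked up from the systematic name of its probe in the RefSeq R64 gene table. This gave 36 of the 6256 genes on the array, out of 37 such symbols in the table, and *ATG44* was the symbol without a probe. The proteins known in some papers as Atg6 and Atg24 are listed there as *VPS30* and *SNX4* and were treated as related genes. Both strains were built on YPH499, a haploid laboratory strain with mutated alleles of *ura3*, *trp1*, *leu2*, *his3*, *lys2* and *ade2*, and lacked the aldose reductase gene *GRE3*. They expressed *XKS1*, for xylulokinase, from the *TDH3* promoter and carried many integrated copies of the xylose isomerase gene *xylA* of *Orpinomyces*, driven by the *PGK1* promoter. YΔG/XK/XI, called the control strain below, had *PHO13* intact, and in YΔGP/XK/XI, called the deletion strain, *PHO13* was disrupted with *KanMX*. How many clones of each strain were used is not given in the sources used here. RNA was taken after 9 h in rich medium with 50 g/L xylose under limited oxygen, and 3 replicates of each strain were hybridized to 1 single-colour Agilent array each. Since no label says that the replicates came from separate cultures, the p-values measure the spread between these samples, which may be technical.

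Autophagy carries cytoplasm to the vacuole, the degradative compartment of yeast, inside a double membrane that grows around it. The Atg1 kinase complex starts the process when nutrients run short and TORC1 is inactive, vesicles with Atg9 and lipids delivered by Atg2 build the membrane, and a pair of ubiquitin-like systems attach Atg8 to it. Selective autophagy uses this core with receptors that tie Atg8 and the scaffold Atg11 to a cargo, such as mitochondria, peroxisomes, endoplasmic reticulum or the vacuolar enzymes of the cytoplasm-to-vacuole targeting (Cvt) pathway.

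The values below are normalized log2 signals, the log2 of a background-subtracted intensity minus the log2 of the 75th percentile of its array, so that 0 is the brightness of that percentile and 1 unit is a doubling. The 75th percentile was 4631 to 7632 intensity units on the arrays of the control strain and 3782 to 7095 on the arrays of the deletion strain, no spot was saturated, and 94.3 to 97.0% of all probes were well above background. The *PHO13* probe was well above background on 3 of 3 arrays of the control strain and on 0 of 3 arrays of the deletion strain, and the *GRE3* probe on 0 of 6. In the control strain *PHO13* gave -0.80, -0.89 and -1.07, at least 82.4-fold higher than in the deletion strain. For this bound, each array of the deletion strain was held at or above the lowest signal among its probes well above background. The test used the signals without the bound (adjusted p = 1.09e-06, limma). *XKS1*, introduced into both strains, gave 4.55, 4.49 and 4.80 in the control strain and 4.18, 4.05 and 4.24 in the deletion strain, and its log2 fold change of -0.45 (adjusted p = 0.0112, limma) was called in all 15 alternative analyses. On each of the 6 arrays every *ATG* probe stood well above background, so no member was lost to a filter on dim probes. The number of arrays limits the precision. Levels are relative to the other RNA of the same sample, and in a bulk culture fewer cells that express a gene and less RNA per cell cannot be told apart.

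Deletion of *PHO13* was accompanied by a change in a minority of the *ATG* genes. At an adjusted p under 0.05 (limma, Benjamini-Hochberg adjustment over the 6256 genes; genes that passed are referred to as called), 8 of the 36 genes (22.2%) differed between the strains. The share over all genes of the array was 29.6%. *ATG10*, *ATG40* and *ATG45* were higher in the deletion strain, 3 of 36 against 16.5% of all genes. *ATG15*, *ATG41*, *ATG5*, *ATG39* and *ATG32* were lower, 5 of 36 against 13.1% of all genes. This split moved with the scaling, since with the array median 2 *ATG* genes were called higher and 6 lower, against 13.4 and 18.2% of all genes, and with quantile normalization also 2 and 6, against 14.5 and 15.8%. In 9 of the 36 genes (25%) the lowest array of one strain lay above the highest of the other, compared with 46.6% of all genes. A log2 fold change above 0.5 in size occurred in 1 *ATG* gene, *ATG15*, and in 12.5% of all genes. The median log2 fold change was 0.02 over the 36 genes and 0.01 over all genes, and the median standard error was 0.09 in both. The count rested in part on single arrays, because 4 *ATG* genes were called without replicate 1 of the control strain or without replicate 1 of the deletion strain, and 5 without replicate 2 of the control strain or without replicate 3 of the deletion strain. The share of all genes called in those fits was 18.8, 22.1, 23.3 and 24.8%, in the same order. Without replicate 3 of the control strain the count rose to 10 of the 36, beside 25.5% of all genes. It stayed at 8 without replicate 2 of the deletion strain, beside 26.6% of all genes.

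**Figure D1:**
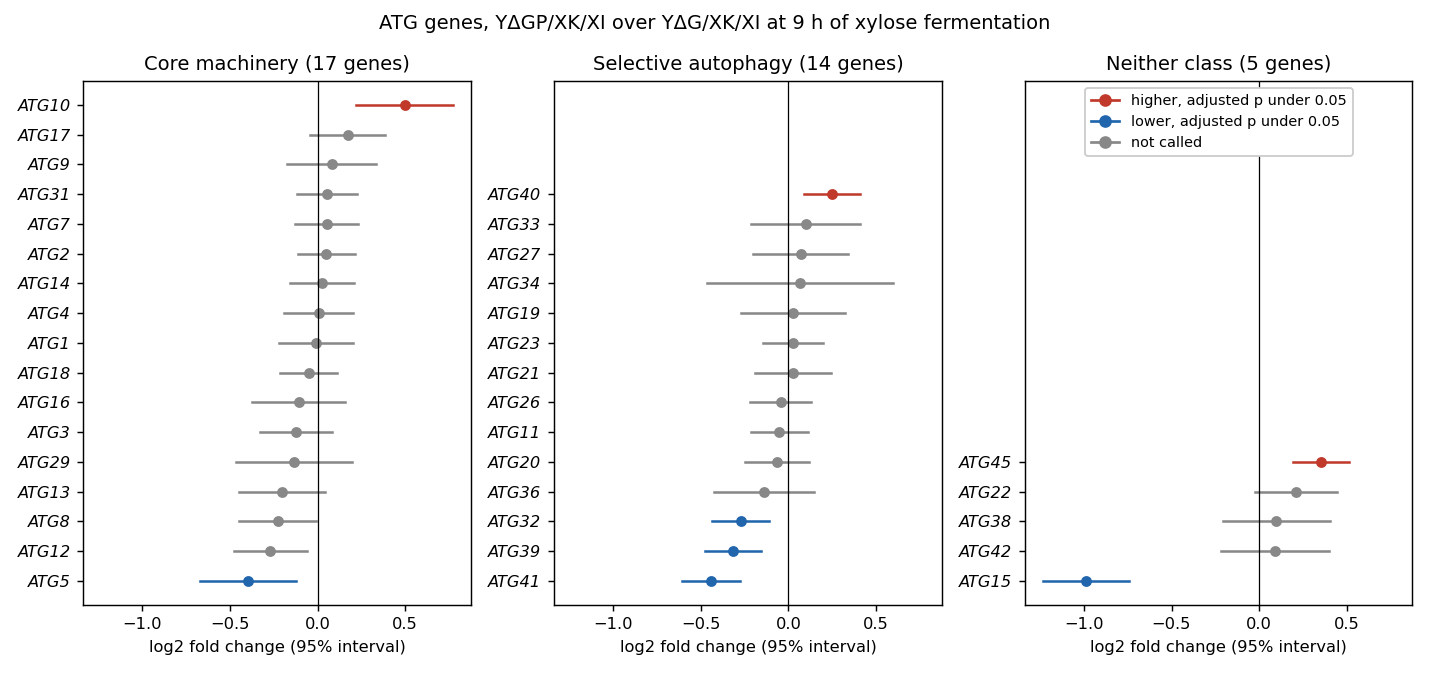
The log2 fold change of each of the 36 *ATG* genes (x axis, the deletion strain over the control strain, with its 95% interval from limma) is drawn by class, with 17 core genes, 14 genes of selective autophagy and 5 of neither class. The intervals of most genes cross 0, and *ATG15*, at -0.99, lies apart from the other members.

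*ATG15* encodes the vacuolar lipase that breaks the membrane of autophagic bodies, the vesicles released into the vacuole. Its normalized log2 signal was -1.70, -1.78 and -1.69 in the control strain and -2.73, -2.91 and -2.49 in the deletion strain. All 3 arrays of the deletion strain lay at least 0.7 log2 units below the lowest array of the control strain. The mean signal was 30.3% of the 75th percentile in the control strain and 15.2% in the deletion strain, a log2 fold change of -0.99 ± 0.11 (SE, adjusted p = 3.98e-04, limma). A larger fall was measured for 0.751% of all genes. *ATG15* was called in all 15 alternative analyses, where its log2 fold change was -1.1 to -0.89. Its neighbours on the chromosome, *SED4* and *CPR4*, had log2 fold changes of 0.21 and 0.14 and were not called.

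The other members that act in the vacuole were not called. *ATG22* encodes a vacuolar membrane protein for the efflux of amino acids released by degradation. Its log2 fold change was 0.21 (95% interval -0.03 to 0.44), and it was called only without replicate 3 of the control strain (log2 fold change 0.31, adjusted p = 0.0385). *ATG42* encodes a vacuolar carboxypeptidase. Its signal in the control strain ranged from 0.38 to 0.93, which covered the 3 values of the deletion strain, and its log2 fold change was 0.09 (-0.22 to 0.40).

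The core machinery, taken here as the genes that form the autophagosome, had 17 members on the array. Of these, 2 were called (11.8%, beside 29.6% of all genes), 1 in each direction. The class includes *ATG17*, *ATG29* and *ATG31*, which act under starvation and not in every kind of autophagy. Its log2 fold changes lay between -0.39 and 0.50 with a median of -0.01. For all 15 core genes that were not called, the 95% interval of the log2 fold change stayed within 0.5 on either side of 0, which is 1.41-fold, and for 7 of them within 0.3, or 1.23-fold.

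None of the 5 genes of the Atg1 kinase complex was called by limma, beside 29.6% of all genes. *ATG1*, the kinase itself, measured -3.18, -3.25 and -3.27 in the control strain and -3.11, -3.42 and -3.20 in the deletion strain. The strains overlapped completely in *ATG1*, with a log2 fold change of -0.01 (95% interval -0.22 to 0.20). *ATG17*, the scaffold that with *ATG29* and *ATG31* gathers the complex under starvation, had a log2 fold change of 0.17, *ATG31* of 0.05 and *ATG29* of -0.13. *ATG13*, whose product is phosphorylated by TORC1, gave -0.14, -0.26 and -0.34 in the control strain and -0.52, -0.23 and -0.58 in the deletion strain. Replicate 2 of the deletion strain lay inside the range of the other strain, and without it the log2 fold change of *ATG13* went from -0.20 (adjusted p = 0.181, limma) to -0.31 (adjusted p = 0.0370).

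The genes for membrane supply had log2 fold changes of less than 0.1 in size. *ATG2*, for the lipid transfer protein, had a log2 fold change of 0.05 (95% interval -0.11 to 0.21). *ATG18*, for its partner that binds phosphatidylinositol 3-phosphate, had -0.05 (-0.21 to 0.11), and *ATG9*, for the membrane protein of the seeding vesicles, 0.08 (-0.17 to 0.34). None of the 3 was called by limma, and the strains overlapped in each. In the phosphatidylinositol 3-kinase complex of autophagy, *ATG14*, for the subunit specific to it, had a log2 fold change of 0.03 (-0.15 to 0.21). *ATG38*, for a subunit that helps to hold this complex together, had 0.10 (-0.21 to 0.40). The subunits that are shared with vacuolar sorting gave 1 called gene, *VPS15*, for the regulatory kinase-like subunit. Its signal was -2.86, -2.98 and -2.94 in the control strain and -2.57, -2.63 and -2.71 in the deletion strain, without overlap. The log2 fold change of *VPS15* was 0.29 (adjusted p = 0.0208, limma), and the call was lost in 3 of 15 alternatives, among them quantile normalization. *VPS34*, the lipid kinase gene, had -0.19 (adjusted p = 0.0908) and *VPS30* -0.07 (adjusted p = 0.509).

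Both calls of the core came from the conjugation of Atg12 to Atg5, and they pointed in opposite directions. *ATG10*, for the E2-like enzyme of this reaction, measured -5.68, -5.58 and -5.24 in the control strain and -4.93, -5.12 and -4.95 in the deletion strain. The strains were 0.12 log2 units apart at their closest arrays. Its mean rose from 2.21 to 3.13% of the 75th percentile, a log2 fold change of 0.50 ± 0.12 (SE, adjusted p = 0.0159, limma). This was the dimmest *ATG* probe, and with the normexp background correction the log2 fold change was 0.40 and the call was lost (adjusted p = 0.0521), as it was without replicate 1 or 2 of the control strain or replicate 1 of the deletion strain (0.0618, 0.0545 and 0.0546). *SDH2*, the gene next to *ATG10*, was called higher with a log2 fold change of 0.60, and *FPS1* on the other side was not called (-0.26).

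*ATG5*, whose product is the target of Atg12, measured 0.63, 0.71 and 1.1 in the control strain and 0.40, 0.43 and 0.42 in the deletion strain. Replicate 3 of the control strain stood above the other 2 arrays of its strain, while the 3 arrays of the deletion strain were nearly equal. The log2 fold change of *ATG5* was -0.39 ± 0.12 (SE, adjusted p = 0.0381, limma). It was -0.25 on slide 1 and -0.68 on slide 2, where replicate 3 of each strain lay, and without replicate 3 of the control strain it was -0.25. The call was lost without replicate 2 of the control strain (adjusted p = 0.0529) and without replicate 1, 2 or 3 of the deletion strain (0.0958, 0.0686 and 0.0792). Its neighbour *PPT2* was called higher, with a log2 fold change of 0.44, and the other neighbour, *YPL150W*, was not called (0.01).

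The remaining genes of the ubiquitin-like systems were not called. *ATG12*, the ubiquitin-like modifier gene, came closest. Its signal was -3.37, -3.42 and -3.57 in the control strain and -3.62, -3.69 and -3.86 in the deletion strain, so that the strains did not overlap. The log2 fold change of *ATG12* was -0.27 (95% interval -0.48 to -0.06, adjusted p = 0.0558, limma). It was called in 6 of the 15 alternatives, with an adjusted p of 0.0149 after quantile normalization and 0.0215 after scaling to the array median. *ATG16*, whose product joins the Atg12-Atg5 conjugate into a complex, had a log2 fold change of -0.11, and *ATG7*, for the E1-like enzyme of both systems, 0.05.

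*ATG8* encodes the modifier that is joined to phosphatidylethanolamine on the growing membrane, and its transcript is known to increase under nitrogen starvation. Its signal was 0.79, 1.01 and 0.99 in the control strain and 0.63, 0.85 and 0.63 in the deletion strain. The strains overlapped at a single array of each, and the log2 fold change was -0.23 (95% interval -0.45 to -0.01, adjusted p = 0.105, limma). It passed the threshold without replicate 2 of the deletion strain (log2 fold change -0.30, adjusted p = 0.0459). *ATG3*, for the E2-like enzyme of Atg8, had a log2 fold change of -0.12, and *ATG4*, for the protease that trims and releases Atg8, of 0.01. Over all 36 members, *ATG8* and *ATG12* were the genes with an unadjusted limma p under 0.05 that were not called.

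**Figure D2:**
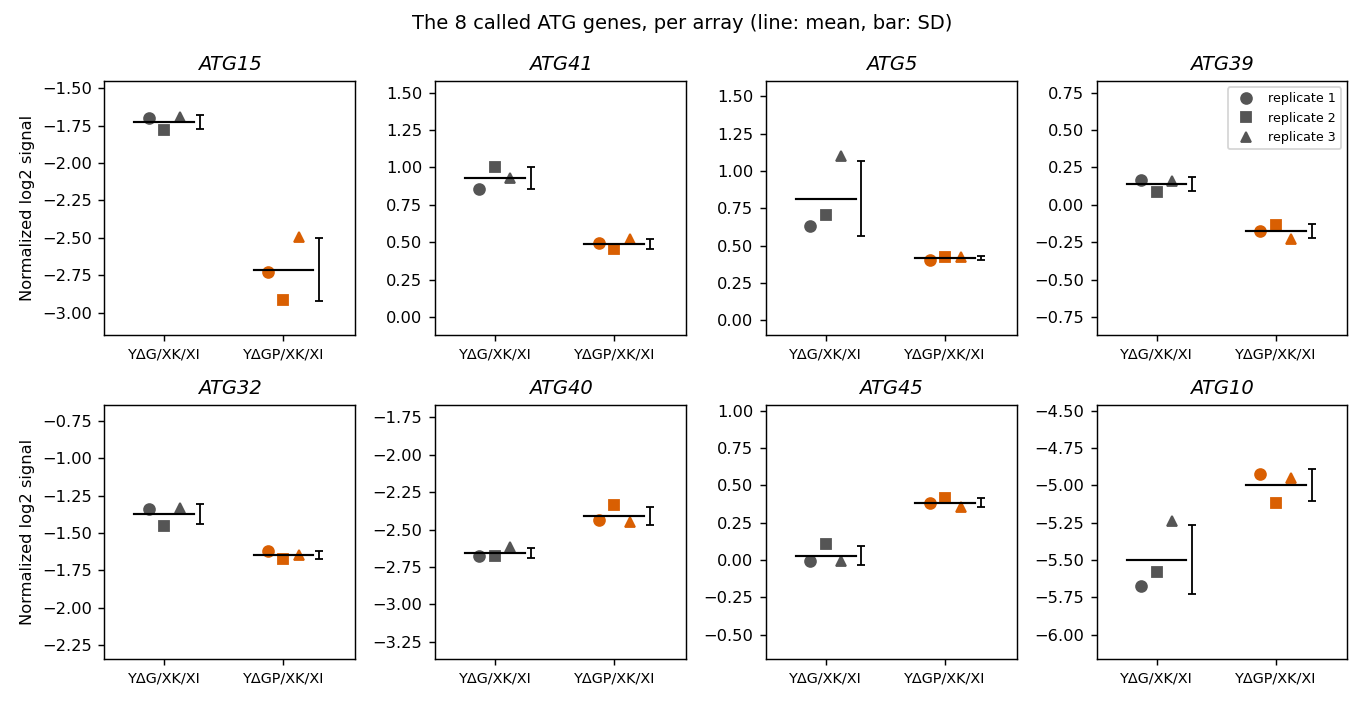
The normalized log2 signal (y axis) of the 8 called *ATG* genes is plotted for each array of the strains (x axis), with a line at the mean and a bar of 1 SD beside it. The y axes span the same number of log2 units, and in each gene the arrays of the strains are separate, with the widest gap in *ATG15*.

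Genes assigned to selective autophagy numbered 14, and 4 of them were called (28.6%), close to the 29.6% of all genes. *ATG41*, *ATG39* and *ATG32* were lower and *ATG40* higher in the deletion strain. The log2 fold changes of the class lay between -0.44 and 0.25, with a median of -0.01. The arrays of the strains overlapped in the other 10 genes. The 95% interval stayed within 0.5 on either side of 0 in 9 of these 10, the exception being *ATG34*.

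Receptors for organelles gave 3 of the calls. With those of the Cvt pathway the class had 6 receptor genes, of which 3 were called, 2 lower and 1 higher. The share over all genes was 29.6%. *ATG39* encodes the receptor for the nuclear envelope and the endoplasmic reticulum around it. Its signal was 0.17, 0.09 and 0.16 in the control strain and -0.18, -0.13 and -0.23 in the deletion strain, 3 arrays above 0 against 3 below. The log2 fold change of *ATG39* was -0.32 ± 0.07 (SE, adjusted p = 0.0107, limma), and of the 15 alternatives only the fit without replicate 1 of the control strain gave an adjusted p above the threshold, 0.0503.

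*ATG40*, for the receptor of the cytoplasmic endoplasmic reticulum, changed in the other direction. It measured -2.68, -2.68 and -2.62 in the control strain and -2.43, -2.34 and -2.45 in the deletion strain. The strains did not overlap, with a log2 fold change of 0.25 ± 0.07 (SE, adjusted p = 0.0286, limma). This was the call that depended most on the settings, since it was lost in 7 of 15 alternatives, with an adjusted p of 0.110 after quantile normalization, 0.0783 after scaling to the array median and 0.0526 to 0.0993 with an array left out, in 5 of 6 such fits. Without replicate 3 of the control strain, *ATG40* was still called.

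*ATG32* encodes the receptor for mitochondria. It measured -1.34, -1.45 and -1.33 in the control strain and -1.62, -1.68 and -1.65 in the deletion strain. The spread within the deletion strain (SD 0.03, n = 3) was small against the difference between the strains, a log2 fold change of -0.27 ± 0.07 (SE, adjusted p = 0.0207, limma). The call was lost without replicate 1 of the control strain (adjusted p = 0.0835) and without replicate 1 or 3 of the deletion strain (0.0521 and 0.0553). *ATG33*, for another protein needed for the degradation of mitochondria, had a log2 fold change of 0.10 (95% interval -0.21 to 0.41) and was not called.

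*ATG36*, for the peroxisome receptor, measured -1.94, -1.93 and -1.69 in the control strain and -2.19, -1.75 and -2.03 in the deletion strain. Its strains overlapped, and the log2 fold change of -0.14 (95% interval -0.42 to 0.14) was not called. The receptor genes of the Cvt pathway are *ATG19* and its paralog *ATG34*, which serves the pathway under starvation. *ATG19* gave 0.21, 0.21 and 0.32 in the control strain and 0.10, 0.59 and 0.13 in the deletion strain, where replicate 2 stood above the rest. *ATG34* gave -1.73, -1.81 and -0.91 in the control strain and -1.65, -1.45 and -1.16 in the deletion strain, with the highest value of each strain in replicate 3, on slide 2. Neither was called, at log2 fold changes of 0.03 (-0.27 to 0.32) for *ATG19* and 0.07 (-0.46 to 0.60) for *ATG34*, the latter with the widest interval of all members. Cross-hybridization between these paralogs was not tested.

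The scaffold *ATG11*, on which the receptors assemble, was among the members with the closest values, at 0.32, 0.32 and 0.31 in the control strain and 0.32, 0.18 and 0.29 in the deletion strain. Its log2 fold change was -0.05 (95% interval -0.21 to 0.11). *ATG20*, for a sorting nexin, had -0.06, and *SNX4*, for its partner, -0.19 (adjusted p = 0.157, limma). *ATG21*, for a relative of Atg18 that acts in the Cvt pathway, had 0.02, and *ATG23* and *ATG27*, for proteins of Atg9 traffic, 0.03 and 0.07. *ATG26*, for a sterol glucosyltransferase whose relative in *Pichia pastoris* acts in the degradation of peroxisomes, had -0.04. None of these members was called.

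*ATG41*, for a protein that binds Atg9 and is needed for efficient autophagosome formation, was placed in the selective class with the other genes of Atg9 traffic. Its signal was 0.86, 1.0 and 0.93 in the control strain and 0.49, 0.45 and 0.52 in the deletion strain. The strains were separate, from 191% to 140% of the 75th percentile in the means, with a log2 fold change of -0.44 ± 0.07 (SE, adjusted p = 0.00274, limma). *ATG41* was called in all 15 alternatives, at log2 fold changes of -0.50 to -0.41. Of its neighbours, the ribosomal protein gene *RPL36B* was called higher (0.73) and *YAH1* was not called (0.07). No neighbour of the called genes *ATG32*, *ATG39*, *ATG40* and *ATG45* was called. Without *ATG41* the selective class had 3 called genes of 13. Its role in autophagosome formation also matches the description of the core, and the core was not counted with *ATG41* in it.

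*ATG45* encodes a protein described as a receptor for glycogen and was counted in neither class. It measured -0.01, 0.11 and -0.01 in the control strain and 0.38, 0.42 and 0.35 in the deletion strain, with no overlap. Its log2 fold change of 0.35 ± 0.07 (SE, adjusted p = 0.00712, limma) was nearly equal on slide 1 (0.35) and slide 2 (0.36). *ATG45* was called in all 15 alternatives. With it among the selective genes, 5 of 15 would be called.

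**Figure D3:**
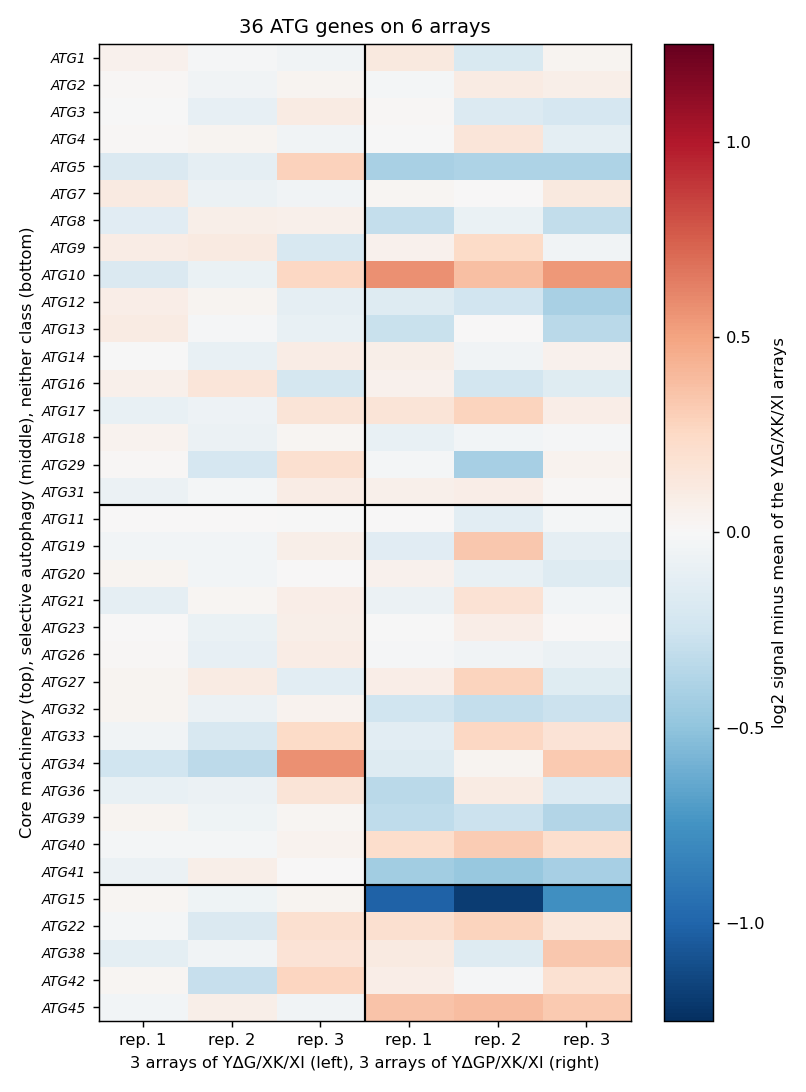
Each row is an *ATG* gene and each column an array, with 3 arrays of the control strain on the left and 3 of the deletion strain on the right, and the colour gives the normalized log2 signal minus the mean of the arrays of the control strain. In 16 of the 36 rows the 3 right-hand columns lie on one side of that mean, in the 8 called genes and in 8 that were not called, such as *ATG8* and *ATG12*, and the darkest cell outside those columns is *ATG34* in replicate 3 of the control strain. The same count was not made over all genes, so 16 of 36 cannot be called many or few.

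The core and the selective genes were set side by side on each array, which removes the scaling between arrays. The median deviation of the 17 core genes from their control means was 0.02, -0.04 and -0.02 on the 3 arrays of the deletion strain, and that of the 14 selective genes was -0.10, 0.06 and -0.09. The core median minus the selective median was therefore 0.12, -0.10 and 0.08, compared with 0.02, 0.00309 and -0.03 on the arrays of the control strain. The arrays of the deletion strain lay on both sides of the arrays of the control strain, with replicate 2 opposite to the others. Each array of the control strain is part of the mean it is compared with, so its smaller deviations are in part built in. The share of called genes was 11.8% in the core and 28.6% in the selective class, beside 29.6% of all genes, and the strains were separate on every array in 3 core and 4 selective genes (17.6 and 28.6%, beside 46.6% of all genes). With an array left out, the core had 0 to 3 called genes, 0 without replicate 2 of the control strain or replicate 1 of the deletion strain and 3 without replicate 3 of the control strain or replicate 2 of the deletion strain. The selective class had 1 to 4, with 1 without replicate 1 of the control strain and 2 without replicate 1 or 3 of the deletion strain. The difference between the classes was not tested.

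The slides gave a second view of the members. Replicates 1 and 2 of both strains were on slide 1 and replicate 3 of both on slide 2, and the direction was the same on both slides in 20 of the 36 *ATG* genes (55.6%) and in 81.4% of all genes. With the slide as a block, 9 of the 36 members and 36.8% of all genes were called, and *ATG12* joined the 8 genes.

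Genes that work around the *ATG* proteins were counted in lists. Of the 7 genes for Cvt cargo and vacuolar hydrolases, 2 were called, both lower. *PRB1*, for proteinase B, had a log2 fold change of -0.30 (adjusted p = 0.0340, limma) and *CPS1*, for carboxypeptidase S, of -0.39 (adjusted p = 0.0443), and these calls were lost in 5 and 6 of 15 alternatives. The main Cvt cargo gene *APE1* (0.14), the mannosidase gene *AMS1* (0.05) and the master protease gene *PEP4* (0.03) were not called. Of the 9 genes for fusion with the vacuole, *CCZ1*, for a subunit of the activator of the GTPase Ypt7, was called lower, with a log2 fold change of -0.26 (adjusted p = 0.0357, lost in 5 of 15 alternatives). The GTPase gene *YPT7* had 0.30 and was not called (adjusted p = 0.0661, limma). In this list 4 log2 fold changes were above 0 and 5 below.

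In the list of 16 genes for TORC1 and protein kinase A signalling, which restrain autophagy when nutrients are plentiful, 2 subunit genes of TORC1 were called lower. *LST8*, whose product also belongs to TORC2, measured 3.65, 3.64 and 3.60 in the control strain and 2.98, 2.83 and 2.85 in the deletion strain. The gap between the strains was several times the spread within them, with a log2 fold change of -0.75 ± 0.07 (SE, adjusted p = 2.23e-04, limma), and the call held in all 15 alternatives. *TCO89*, which is found in TORC1 alone, had -0.34 (adjusted p = 0.0275, lost in 2 of 15 alternatives). The kinase genes *TOR1* (0.09) and *TOR2* (0.19) and the subunit gene *KOG1* (0.14) were not called.

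Of 14 regulators linked to the transcription of *ATG* genes, *GCN4*, for the activator of amino acid synthesis genes, was called higher and *GLN3*, for a GATA factor of nitrogen control, lower. *GCN4* measured 1.97, 2.06 and 2.16 in the control strain and 2.40, 2.34 and 2.48 in the deletion strain, without overlap, and its log2 fold change was 0.35 (adjusted p = 0.0125, limma). The call of *GCN4* was lost without replicate 1 of the control strain (adjusted p = 0.0582). *GLN3* had -0.26 (adjusted p = 0.0450), lost in 5 of the 15 alternatives. *UME6*, for a repressor of *ATG8* in rich medium, had a log2 fold change of 0.02, and *RPH1*, for another repressor of *ATG* genes, of -0.08, and neither was called. In each of these 4 lists the called share, at 28.6, 11.1, 12.5 and 14.3%, was at or below that of all genes.

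**Figure D4:**
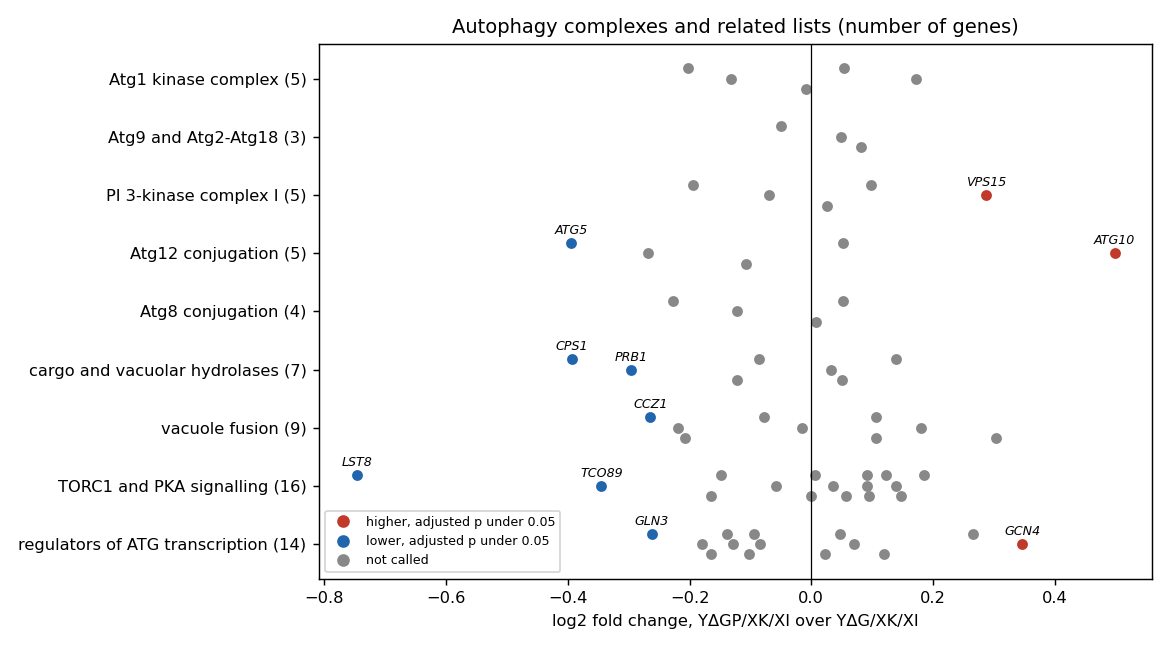
Each point is a gene, placed by its log2 fold change (x axis, the deletion strain over the control strain) in the complexes of the core machinery and in the related lists (y axis, number of genes in brackets), and called genes carry their name. Most points lie within 0.3 of 0, and *LST8*, at -0.75, is the farthest.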

How the data were processed

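For each array the authors deposited the output of Agilent Feature Extraction 10.1.1.1, with background-subtracted spot intensities not scaled between arrays, and a log2 table normalized per chip. The deposited log2 table equals the intensities shifted to the 75th percentile and centred per probe (r of 0.9999 or above). The flags per spot (other columns deposited) marked outliers, 304 to 466 per array, which were left out, and a probe was well above background when at least 4 of its 7 spots were so marked. The log2 spot intensities of a probe were averaged, and that of the 75th percentile of its array was taken off. Each gene had 1 probe. The comparison of the strains used limma 3.58.1 (R 4.3.3), with p adjusted over 6256 genes, and an exact permutation test of 3 against 3 cannot give a p below 0.1. Symbols came from the RefSeq R64 table, which matched 5756 systematic names. The build of the probes is not given in the sources used here, so no coordinates are printed. The fit was tested on simulated data. All *ATG* genes are named, and of each related list the called genes with the largest changes, up to 3 per direction, plus a few uncalled genes named for their role. The core class was ATG1 to ATG10, ATG12 to ATG14, ATG16 to ATG18, ATG29 and ATG31, and classes and lists were written from general knowledge. The members and lists were chosen with earlier results of these data known. The alternatives were normexp background correction (offset 50), quantile normalization, array median scaling, a filter on dim probes, the median over spots, a variance trend, the replicate or slide as a block, the deposited table and each array left out.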

Additional observations from a re-analysis of the deposited data

How the results depend on the processing

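No called *ATG* gene changed direction in any of the 15 alternatives, and *ATG15*, *ATG41* and *ATG45* were called in all of them. Leaving out an array gave 1178 to 1661 called genes in all (lowest without replicate 1 of YΔG/XK/XI), 1 to 4 *ATG* genes called higher and 3 to 6 called lower. With the replicate block, 3 *ATG* genes were called higher and 7 lower, with *ATG8* and *ATG12* added, and 2362 genes were called in all. Deviations of same-numbered arrays correlated at 0.07, 0.30 and 0.41, compared with -0.48 to 0.13 for arrays with different numbers. Replicate 3 of both strains also shared slide 2. Whether the numbers pair the samples cannot be told from these values, and the main fit left them unpaired. Scaling moved the direction of calls over all genes, from 55.8% higher to 42.4% with the array median and 47.9% with quantile normalization. The median log2 fold change of the core was -0.0883 and -0.0686 with quantile normalization and the array median, where that of all genes was -0.0183 and -0.0509.

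Uncalled genes near 0 changed sign, with an adjusted p of 0.26 or above in each such fit. With the array median the log2 fold changes were -0.0344 for *ATG14*, -0.0334 for *ATG19*, -0.0107 for *ATG2*, -0.0361 for *ATG21*, -0.0342 for *ATG23*, -0.0063 for *ATG31*, -0.0527 for *ATG4* and -0.00847 for *ATG7*. With quantile normalization they were -0.0883 for *ATG14*, -0.0675 for *ATG23*, -0.00828 for *ATG31*, -0.0786 for *ATG4* and -0.0523 for *ATG7*. Normexp gave 0.00091 for *ATG1* and -0.00745 for *ATG23*, and the median over spots 0.0073 for *ATG1*. With an array left out the ranges were -0.0741 to 0.0801 (*ATG1*), -0.0647 to 0.0729 (*ATG4*), -0.0171 to 0.146 (*ATG9*), -0.0211 to 0.0742 (*ATG14*), -0.13 to 0.112 (*ATG19*), -0.0559 to 0.0733 (*ATG21*), -0.0148 to 0.0635 (*ATG23*), -0.0981 to 0.00162 (*ATG26*), -0.0336 to 0.183 (*ATG27*), -0.239 to 0.01 (*ATG29*), -0.0978 to 0.353 (*ATG34*), -0.0236 to 0.226 (*ATG38*) and -0.0547 to 0.221 (*ATG42*). Scaling to the array median takes the same value off every gene of an array, so all log2 fold changes moved by an equal amount. The median over all genes went from 0.00916 to -0.0509 with it. The cause of the other shifts was not tested. Counting *ATG38* as core, or *ATG45* as selective, or leaving out *ATG41*, which was chosen after seeing the data, gave class medians of -0.00059, 0.024 and 0.024.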
